A study of Mus musculus with 2 samples.

Results

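The secreted Wnt signals of the mouse, their Frizzled receptors and 3 families of secreted modulators were examined for accessible chromatin in the urinary bladder. Members were all protein-coding genes of the GENCODE M21 annotation whose symbol is Wnt, Fzd, Sfrp, Dkk or Rspo followed by a digit, which gave 41 of 21938 genes: 19 Wnt, 10 Fzd, 4 Sfrp, 4 Dkk and 4 Rspo genes. Membership follows from the symbol. DNase-seq, which maps where the nuclease DNase I can cut chromatin in nuclei, was carried out on whole urinary bladder. The animals were 36 days old, male and of the strain B6CASTF1/J. These are F1 hybrids between a C57BL/6J and a CAST/EiJ parent, with no treatment or engineered allele named in the labels. There was 1 group of 2 libraries, replicate 1 and replicate 2, which the labels assign to separately numbered males under a shared donor identifier, so the spread between libraries may be partly technical. No second condition exists, so the comparisons are between families, between genes and between the libraries. Genes are not replicates of a condition, and no test across them was run. The tissue is a mixture of urothelium, detrusor muscle, stroma, vessels and nerves, and a site in few cells cannot be told apart from one that is weakly accessible in many.

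Wnt proteins are lipid-modified secreted ligands that bind Frizzled proteins, multipass membrane receptors, together with the co-receptors Lrp5 and Lrp6. In the canonical branch this stabilises beta-catenin, which activates genes together with TCF and LEF factors, and other branches act through Ror receptors or planar cell polarity proteins. Sfrp proteins carry a Frizzled-like domain and bind Wnt ligands outside the cell, and Dkk proteins such as Dkk1 bind the Lrp co-receptors. Rspo proteins bind Lgr receptors and keep Frizzled proteins on the membrane by restraining the ubiquitin ligases Rnf43 and Znrf3. In the bladder, stromal Wnt2 and Wnt4 are known as signals that respond to Hedgehog from the urothelium during regeneration.

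The authors' shorter peak lists held 38674 peaks in replicate 1 and 47661 in replicate 2, and their longer lists 63793 and 79598. Peak height is the signal value deposited for each peak. It came in steps of 0.0113 and 0.00893, and read depth is unknown. As a check of the tissue, start peaks in each library were sought at marker genes. They were found for 7 of 8 urothelial, 3 of 5 smooth muscle and 2 of 3 fibroblast genes, against 56.3% of all protein-coding genes. The smooth muscle and fibroblast shares are near that of all genes. Krt5, Acta2, Des and Dcn lacked one but had one in both longer lists. Only 1 of 3 endothelial markers had one, and Pecam1 and Cdh5 lacked one in both libraries of the longer lists too. None of the 9 markers of liver, neurons and male accessory glands had one in both libraries. In each case a start peak is a peak that overlaps the 500 bases on either side of any annotated transcript start of the gene.

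Receptor genes had accessible starts throughout, ligand genes in part, and the genes of 2 modulator families in no case in both libraries. Start peaks were found in each of the libraries for 10 of 10 Fzd genes, 7 of 19 Wnt genes, 2 of 4 Sfrp genes, 0 of 4 Dkk genes and 0 of 4 Rspo genes. Over all members this made 19 of 41 (46.3%), against 56.3% of all protein-coding genes. In replicate 1 alone 20 members had a start peak, where 57.8% of all genes did, and in replicate 2 alone 23 members had one, where 58.6% did. A further 5 members had a start peak in 1 library only, and 17 had none in the shorter lists. In the longer lists 25 members (61.0%) had one in both libraries, against 61.4% of all protein-coding genes, so the lower share of members was not seen there. These were 11 Wnt, 10 Fzd, 3 Sfrp, 0 Dkk and 1 Rspo gene. The order of the families by share was therefore Fzd, Sfrp, Wnt and then Rspo or Dkk in either list. All 10 Fzd genes and none of the 4 Dkk genes were in the CpG-richest class of starts, described below. Of all protein-coding genes of that class, 88.4% had a start peak in both libraries. The Fzd and Dkk counts are therefore not read as a trait of those families. Of the 14 Wnt and 3 Rspo genes in that class, 6 and 0 had one.

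**Figure D1:**
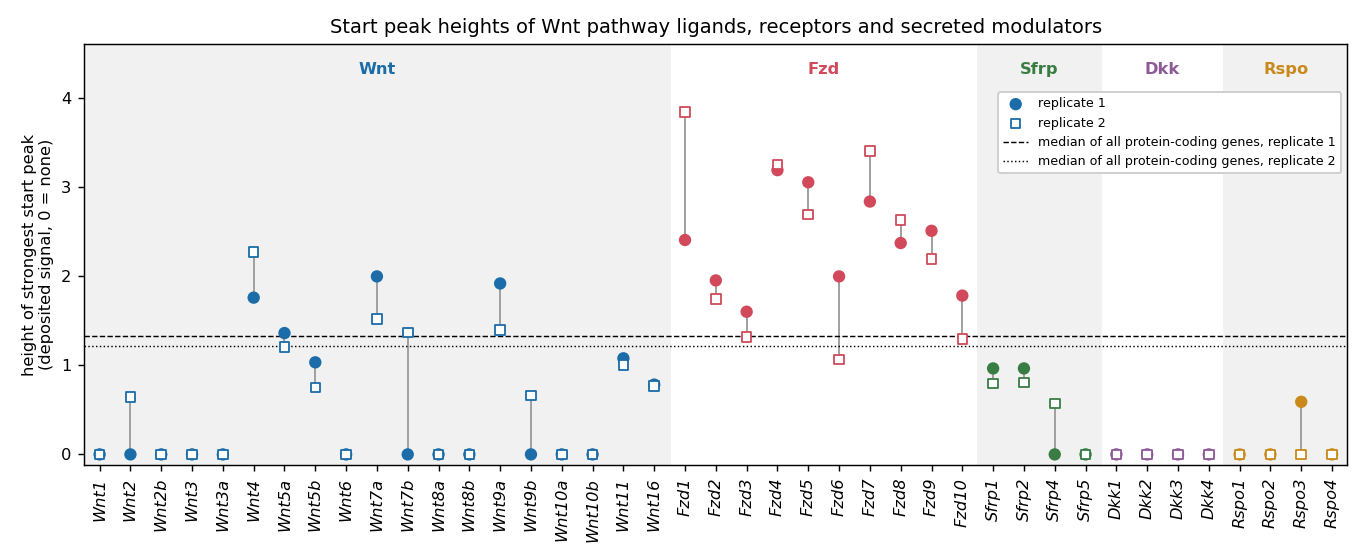
Height of the strongest start peak of each of the 41 genes (vertical axis, deposited signal, 0 where no peak was listed) by gene and family (horizontal axis). Filled circles are replicate 1, open squares replicate 2, the grey line joins both, and the dashed and dotted lines are the medians over all 21938 protein-coding genes with genes lacking a peak set to 0 (1.33 and 1.21). All 10 Fzd genes lie above 0 in both libraries, and all 4 Dkk genes lie at 0.

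The 6 highest mean start peak heights of the 41 genes belonged to Frizzled receptor genes. Fzd4, which also serves as the receptor for norrin in retinal vessels, had heights of 3.19 in replicate 1 and 3.25 in replicate 2 (3.22 ± 0.0455, SD, n = 2). Fzd1 reached 2.40 and 3.84, and Fzd7 reached 2.83 and 3.40. Among the start peaks of its own library Fzd1 stood at percentile 58.5 in replicate 1 and 83.2 in replicate 2, and Fzd4 at 72.4 and 75.5. By mean height Fzd5 followed with 3.05 and 2.69, Fzd8 with 2.37 and 2.63 and Fzd9 with 2.51 and 2.19. The 4 lowest Fzd genes by mean height were Fzd2 at 1.95 and 1.74, Fzd10 at 1.78 and 1.29, Fzd6 at 2.00 and 1.06 and Fzd3 at 1.60 and 1.31. Fzd3 and Fzd6 are the receptors best known from planar cell polarity. The spread between libraries was small for Fzd4 and wide for Fzd1 and Fzd6, so the order of Fzd1, Fzd4 and Fzd7 is not resolved. Nor is that of Fzd3, Fzd6 and Fzd10. In replicate 1 Fzd5 was above Fzd1 and Fzd7, Fzd9 above Fzd1 and Fzd6 above Fzd2, each the reverse of replicate 2. These orders are not resolved either. With start windows of 250 bases the mean height of Fzd7 was 2.47.

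The family median was 2.39 in replicate 1 and 2.41 in replicate 2, below the 2.94 and 2.81 of all protein-coding genes that had a start peak. In replicate 1 the Fzd7 peak was centred at -584 bases from the gene start, with negative values upstream, and the other Fzd peaks lay within 246 bases of theirs. The Fzd4 peak overlaps the start window of the neighbouring gene Tmem135 as well, that of Fzd6 the window of the noncoding RNA gene Gm26704 and that of Fzd10 the window of the noncoding RNA gene 5930412G12Rik, so these sites cannot be given to 1 gene alone.

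The Frizzled start site with the highest mean height, which Fzd1 and Fzd7 exceed in replicate 2, is shown as an example of an accessible receptor promoter (chr7:89404191-89404390, GRCm38 patch 6, plus strand, the central 200 bases of the site). Capitals mark bases inside a footprint, a short stretch protected from cutting, in either library. Footprints covered 86 of these bases in replicate 1, 78 in replicate 2 and 74 in both, with 18 CG dinucleotides and a match to the SP/KLF sequence GGGCGG on at least 1 strand.
Fzd4 start: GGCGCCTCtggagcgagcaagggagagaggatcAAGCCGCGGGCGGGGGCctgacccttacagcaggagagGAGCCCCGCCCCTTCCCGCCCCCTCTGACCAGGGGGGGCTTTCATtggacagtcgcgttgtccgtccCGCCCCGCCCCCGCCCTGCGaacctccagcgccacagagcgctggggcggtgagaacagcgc

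Among the ligands, Wnt4 had the highest mean start peak height, with 1.76 in replicate 1 and 2.27 in replicate 2. Wnt4 acts in kidney tubule formation and in the female reproductive tract. Wnt7a, which patterns the limb and the female tract, reached 2.00 and 1.52, and Wnt9a, a ligand of joint formation, 1.92 and 1.39. Both were above Wnt4 in replicate 1 and below it in replicate 2, so the order of these ligands is not resolved, and with start windows of 1000 bases the mean of Wnt9a was 2.55 against 2.01 for Wnt4. Wnt5a, a ligand of the beta-catenin independent branch, reached 1.36 and 1.21. These 4 genes lay between percentiles 32.1 and 60.3 of all start peaks. Lower values were seen for Wnt11, a ligand of ureteric branching (1.08 and 1.00), for Wnt5b, a paralogue of Wnt5a (1.03 and 0.750), and for Wnt16, a ligand known from bone (0.782 and 0.768).

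Several of these peaks were not at the 5′ end of the gene. The Wnt5b peak lay 95100 bases downstream of the gene start in replicate 1, at an internal annotated start, and no replicate 1 peak lay at the gene start itself. The Wnt11 peak was centred 3883 bases downstream and that of Wnt16 686 bases downstream, and with gene starts alone Wnt5b and Wnt16 lost their start peak while Wnt11 kept one. At the Wnt11 gene start a weaker site had heights of 0.975 and 0.571. The Wnt7a peak, at -547 bases, also overlaps the start window of the gene Gm30437, and it fell outside start windows of 250 bases. Wnt5a had the longest accessible start region of the ligands, with start peaks summing to 1885 bases in replicate 1 and 2606 in replicate 2 over 6 annotated starts.

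The Wnt4 start site, with the highest mean height of the ligand starts though not the highest in replicate 1, is shown for comparison with Fzd4 (chr4:137277221-137277420, GRCm38 patch 6, plus strand). In its central 200 bases footprints covered 20 bases in replicate 1, 61 in replicate 2 and 18 in both, and capitals mark those of either library. It holds 23 CG dinucleotides and the sequence GGGCGG. The replicate 1 peak in it was narrow, at 66 bases against 320 in replicate 2.
Wnt4 start: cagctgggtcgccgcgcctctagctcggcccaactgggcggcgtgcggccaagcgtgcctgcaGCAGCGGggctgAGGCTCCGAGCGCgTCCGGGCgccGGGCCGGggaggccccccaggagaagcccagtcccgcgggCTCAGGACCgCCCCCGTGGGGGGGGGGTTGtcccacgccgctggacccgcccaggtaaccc

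For 12 ligand genes no start peak was present in both libraries. Wnt2, the stromal ligand of lung and bladder, had one in replicate 2 alone at 0.643, Wnt9b, a ligand of the mesonephric duct, at 0.661 and Wnt7b, an epithelial ligand, at 1.37. The Wnt7b peak was the strongest of these, lay 1847 bases inside the gene and overlaps the start window of the antisense gene AU022754. In the longer lists Wnt7b (1.21 in replicate 1) and Wnt9b (0.748) had a start peak in replicate 1 too, and Wnt2 had none. No start peak was listed in the shorter lists for Wnt1, Wnt2b, Wnt3, Wnt3a, Wnt6, Wnt8a, Wnt8b, Wnt10a and Wnt10b. Among them Wnt1, known from the midbrain, and Wnt2b, a relative of Wnt2, had one in both longer lists, with heights of 1.38 and 0.777 for Wnt1 and of 0.839 and 0.839 for Wnt2b, and Wnt10b had one in replicate 2 only, at 0.625. Wnt3 and Wnt3a, ligands of gastrulation and somite formation, Wnt6, Wnt8a, Wnt8b and Wnt10a, a ligand of teeth and skin appendages, had no base listed in their start windows in either library by the authors' per-site FDR, which runs up to 0.05.

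Among the Wnt-binding inhibitors Sfrp1 and Sfrp2 had low start peaks that were close between libraries. Sfrp1 had heights of 0.964 and 0.795, and Sfrp2 had heights of 0.964 and 0.804, which placed both between percentiles 16.4 and 17.2 of all start peaks. Sfrp4 had a start peak in replicate 2 alone, at 0.571, and in the longer list of replicate 1 at 0.454. Sfrp5 had none in any list. The 2 accessible Sfrp genes thus lay below each of the 10 Fzd genes in both libraries.

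The Sfrp2 start site shows a CG-rich start of low height (chr3:83766003-83766202, GRCm38 patch 6, plus strand, the central 200 bases). Footprints of either library are in capitals and cover 34 bases in replicate 1, 24 in replicate 2 and 15 in both. There are 19 CG dinucleotides and a match to the NRF1 consensus.
Sfrp2 start: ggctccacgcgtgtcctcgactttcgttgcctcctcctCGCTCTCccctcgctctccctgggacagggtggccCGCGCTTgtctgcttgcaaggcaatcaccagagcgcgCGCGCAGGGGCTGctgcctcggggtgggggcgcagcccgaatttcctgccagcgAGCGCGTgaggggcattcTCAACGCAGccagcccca

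None of the Dkk genes had a start peak in each library, in either list. Dkk1, which blocks Lrp5 and Lrp6, and Dkk3 had one in the longer list of replicate 1 alone, at 0.397 and 0.567, and the lowest per-site FDR in their start windows was 0.00975 and 0.0223 there. Dkk2 and Dkk4 had none, and no base with a listed FDR. Of the Rspo genes, Rspo3, an enhancer of Wnt signalling in vessels and many stem cell niches, had a start peak of 0.590 in replicate 1 and, in the longer list only, of 0.518 in replicate 2. Rspo1, Rspo2 and Rspo4 had no start peak in any list and no base with a listed FDR. In all, 12 of the 41 genes had no such base in either library.

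Frizzled starts were all CpG-rich, and CpG-rich starts of Wnt and Rspo genes were often without a peak. CpG content was measured as the ratio of observed to expected CG dinucleotides in the 500 bases on either side of a start, taking the highest start of a gene. Of all protein-coding genes with a ratio over 0.6, 88.4% had a start peak in both libraries, against 54.2% of those between 0.4 and 0.6 and 7.50% of those under 0.4. In the highest class were 10 of 10 Fzd genes, of which 10 had a start peak in both libraries, and 14 Wnt genes, of which 6 had one. Of the 3 Rspo genes of that class, Rspo1 and Rspo2 had no start peak in either library and Rspo3 had one in replicate 1 alone, and 2 of 3 Sfrp genes had one in both. Over all members, 18 of 30 genes of that class had a start peak in both. The Wnt genes without one in this class were Wnt2, Wnt2b, Wnt3, Wnt3a, Wnt6, Wnt7b, Wnt9b and Wnt10b. None of the 4 Dkk genes was in the highest class, with ratios from 0.306 for Dkk4 to 0.479 for Dkk2. Wnt16, at 0.480, was the member with a start peak in both libraries outside the highest class.

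**Figure D2:**
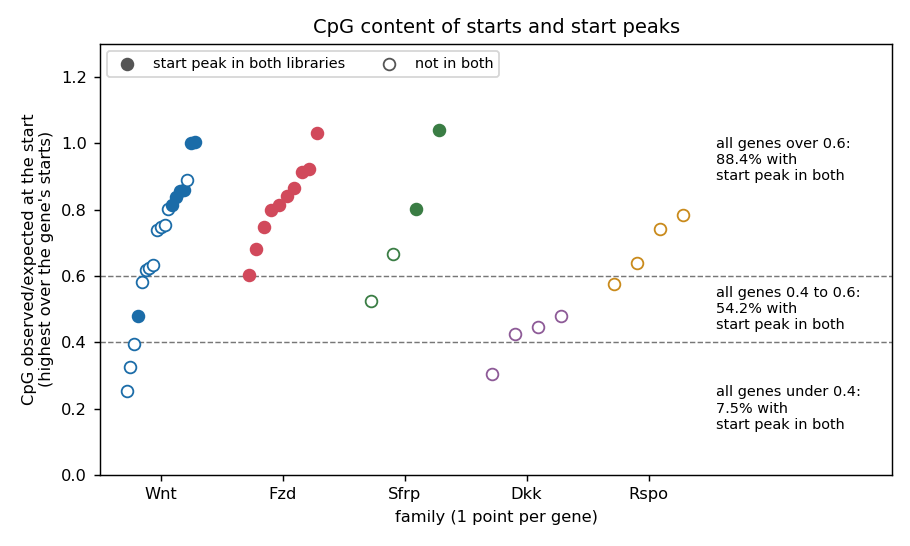
CpG observed/expected ratio at the start (vertical axis, highest over the starts of a gene) for each of the 41 genes by family (horizontal axis), filled where both libraries had a start peak and open where not. Dashed lines are the class limits of 0.4 and 0.6, and the text on the right gives the share of all protein-coding genes of each class with a start peak in both libraries. All 10 Fzd points are filled and lie above 0.6, where 3 Rspo points are open.

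Away from starts the median density of sites was highest for Wnt genes, but this order turned in some settings. Non-start sites are peaks of both libraries that overlap each other and no start window of any gene, counted in the gene body plus 50 kb on either side. At least 1 such site was present for 36 of 41 members, against 64.3% of all protein-coding genes. The median density was 1.89 sites per 100 kb for Wnt genes, 1.29 for Sfrp, 0.965 for Dkk, 0.938 for Fzd and 0.273 for Rspo genes, against 0.845 for all protein-coding genes and 0.969 for all members. Of the 19 Wnt genes, 14 lay above the median gene. The ranges overlapped widely, from 0 to 4.16 in Wnt, from 0 to 3.86 in Fzd and from 0 to 1.52 in Rspo genes. In replicate 1 alone the Wnt median was 1.888 and the Fzd median 1.893, and in replicate 2 alone they were 4.65 and 1.90. With each site given only to its nearest coding gene, the Wnt median was 0.818, below the Fzd median of 0.932, so the lead of the Wnt genes depends on the setting.

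**Figure D3:**
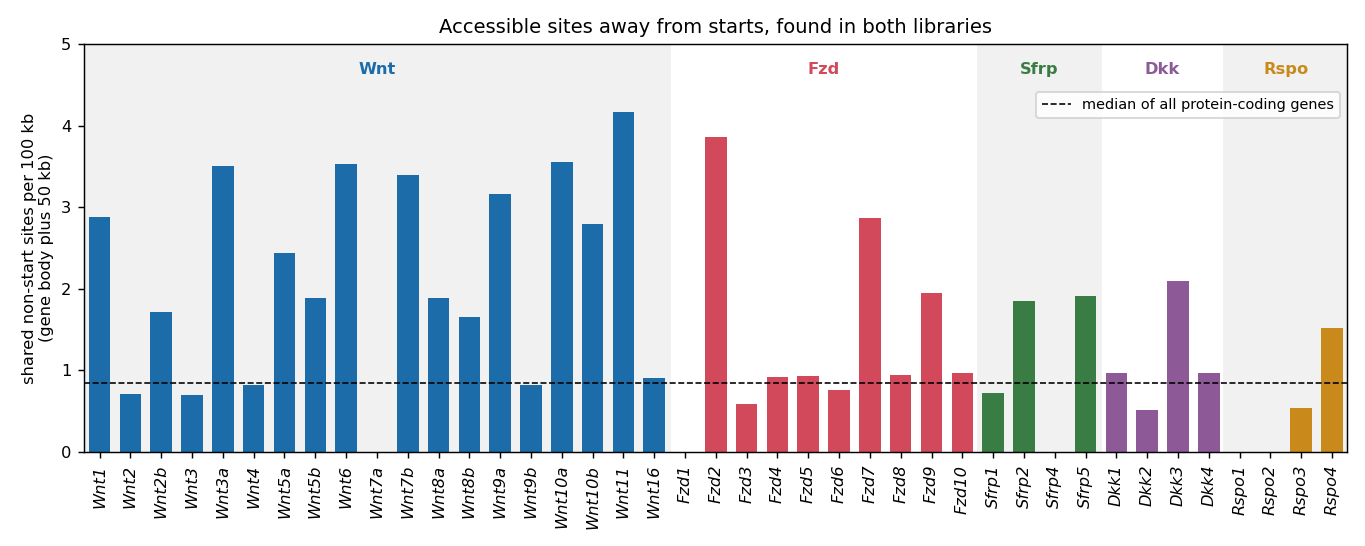
Shared non-start sites per 100 kb (vertical axis, gene body plus 50 kb on either side) for each of the 41 genes, coloured by family. The dashed line is the median of all protein-coding genes, 0.845, and the highest bars belong to Wnt11 (4.16) and Fzd2 (3.86).

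Wnt11 had the highest density, with 5 sites. A cluster of 3 sites lay at -19722, -19252 and -18872 bases from its start, and the outer 2 had the highest mean heights of all non-start sites of members, with heights of 4.002 and 3.473 for the farther and of 3.92 and 4.85 for the nearer. In replicate 2 the Wnt2b site at -6239 bases, at 3.57, was above the farther of them. The other Wnt11 sites lay in its introns. Wnt7b also had 5 sites, 3 of them between -32887 and -28339 bases with mean heights from 1.74 to 2.29, while its start peak was present in replicate 2 alone. Wnt2b, without a start peak in the shorter lists, had sites at -6239 bases (3.30 and 3.57) and at -31029 bases (2.86 and 2.20). Wnt5a had 2 intronic sites and 1 downstream, and Wnt4 had 1 site at -45810 bases. Wnt7a had none.

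Fzd1 had no shared non-start site, whereas Fzd2 had 4. The densest receptor locus after Fzd2 was Fzd7, where 2 of 3 sites lay within its exon, at 1223 and 1596 bases from the start. Fzd8 likewise had an exonic site, 960 bases wide, with heights of 1.59 and 1.48. In the Dkk family Dkk3, which lacked start peaks in the shorter lists, had 3 sites, of which those at -21281 and -24353 bases had mean heights of 1.64 and 2.43. Sfrp2 had a site at -1981 bases (2.17 and 1.93), higher than its own start peak. Rspo3 had 1 intronic site 2887 bases from its start (1.51 and 1.48), Rspo4 had 2 sites, and Rspo1 and Rspo2 had none.

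**Figure D4:**
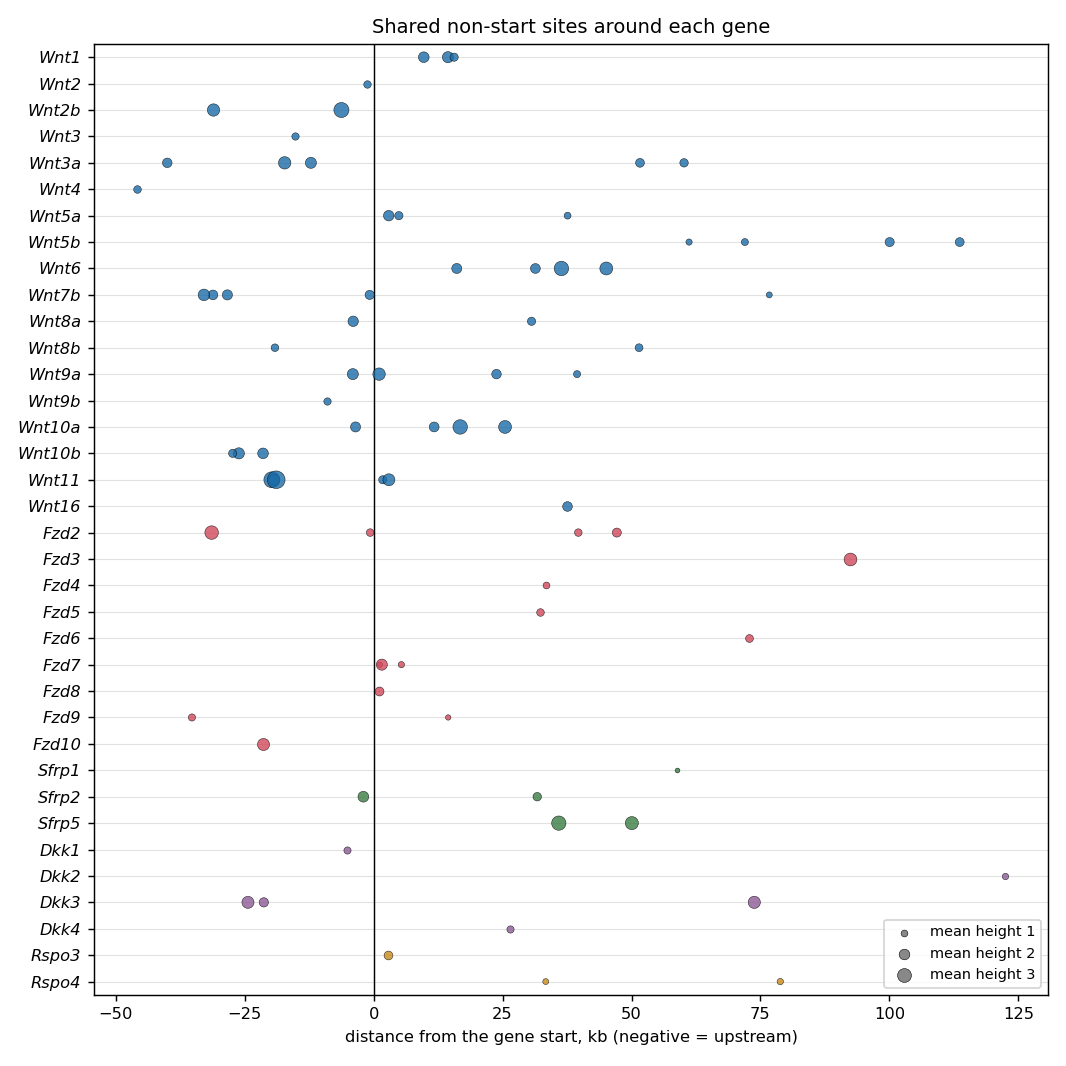
Position of each shared non-start site relative to the start of the gene (horizontal axis, kb, negative upstream in the direction of the gene) for the 36 genes with at least 1 site (vertical axis), with point area growing with the mean height of both libraries. The largest points are those of Wnt11 at -19722 and -18872 bases.

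Each site counted once, there were 69 such sites, with median heights of 1.66 in replicate 1 and 1.46 in replicate 2, against 1.29 and 1.23 for all 15562 shared non-start sites. Of the 69, 45 had a member as the nearest coding gene start and 12 lay in the body of another coding gene. In the 80 pairs of gene and site, 31 sites were upstream, 35 downstream, 10 in an intron and 4 in an exon of the gene. Neighbouring Wnt genes share sites. Wnt1 and Wnt10b, 11706 bases apart, had the same 3 sites, and Wnt6 and Wnt10a, 6193 bases apart, the same 4, and none of these 4 genes had a start peak in the shorter lists. Wnt3 and Wnt9b shared their only site, and Wnt3a shared 3 of its 5 with Wnt9a, whose own start was accessible. Sites of such pairs cannot be assigned to 1 gene.

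The shared non-start site with the highest mean height in each family, with its footprints in capitals, is given on the plus strand of GRCm38 patch 6, as the central 200 bases or the whole site where shorter, to show what protected sequence these loci hold. The Wnt11 site is chr7:98816141-98816340, with 66 footprint bases in replicate 1, 99 in replicate 2 and a match to GGGCGG. The Fzd2 site, chr11:102572921-102573080, matched the CTCF consensus and lies -31396 bases from the gene, nearer to the coding gene Gm11627. The Sfrp5 site, chr19:42166261-42166440, lies in the body of Zfyve27. The Dkk3 site, chr7:112085161-112085360, lies in the body of Usp47 and holds GGAATG and GGGCGG, both outside its footprints. The Rspo3 site, chr10:29532881-29533080, lies in an intron of its gene. No motif searched was found in the Sfrp5 and Rspo3 sequences, which says only that these letters are not in these windows. CTCF was searched by its core consensus, so a site that departs from it would not be counted.
Wnt11 upstream: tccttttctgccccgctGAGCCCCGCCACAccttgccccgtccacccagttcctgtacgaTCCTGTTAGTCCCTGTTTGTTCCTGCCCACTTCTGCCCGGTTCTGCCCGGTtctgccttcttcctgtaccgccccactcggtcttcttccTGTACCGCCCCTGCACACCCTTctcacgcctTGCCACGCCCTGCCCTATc
Fzd2 upstream: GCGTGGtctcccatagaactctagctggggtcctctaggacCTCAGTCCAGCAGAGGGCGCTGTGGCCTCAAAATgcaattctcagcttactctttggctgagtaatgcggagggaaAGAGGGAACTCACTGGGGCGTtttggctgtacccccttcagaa
Sfrp5 downstream: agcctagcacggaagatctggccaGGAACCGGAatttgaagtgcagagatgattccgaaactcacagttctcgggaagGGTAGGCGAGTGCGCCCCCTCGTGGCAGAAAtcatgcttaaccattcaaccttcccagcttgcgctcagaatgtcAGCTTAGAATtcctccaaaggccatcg
Dkk3 downstream: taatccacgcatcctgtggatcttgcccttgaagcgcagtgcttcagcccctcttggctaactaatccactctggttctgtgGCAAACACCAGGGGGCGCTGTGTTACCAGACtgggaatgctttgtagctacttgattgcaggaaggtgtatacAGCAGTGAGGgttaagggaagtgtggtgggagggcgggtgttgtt
Rspo3 intron: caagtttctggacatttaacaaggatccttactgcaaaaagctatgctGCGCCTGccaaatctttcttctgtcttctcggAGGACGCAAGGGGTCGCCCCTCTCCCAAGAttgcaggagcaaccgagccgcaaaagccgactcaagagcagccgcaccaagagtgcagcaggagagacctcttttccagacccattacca

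Fzd genes held most of the footprints in start peaks of members, but per kb they lay below all protein-coding genes. Start peaks of Fzd genes held 77 footprints in replicate 1 and 67 in replicate 2, those of Wnt genes 26 and 45, and those of Sfrp genes 5 and 10. Per kb of start peak, Fzd genes had medians of 10.1 and 12.7 footprints and Wnt genes 7.41 and 8.34, against 13.2 and 13.3 over all protein-coding genes with a start peak. Fzd1 had 11 and 8 footprints, Fzd4 11 and 8 and Fzd7 8 and 12. Wnt5a had 13 and 17 over its long start region, Wnt4 1 and 8, and Wnt16 1 and 0. The footprint lists give no strength, and their number was not corrected for peak height.

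Known factor sequences were searched on both strands in the central 200 bases of each shared site, in the 29 start sites and 69 non-start sites of the members. The SP/KLF sequence GGGCGG was found in 16 of 29 start sites (55.2%, against 57.9% of all shared start sites), among them sites of 9 of the 10 Fzd genes, Fzd3 being the exception. The NRF1 consensus was in 3 of 29, at Fzd2, Fzd3 and Sfrp2 (10.3%, against 10.1%). The ETS sequence CCGGAAG was in 0 of 29 start sites and in 12.7% of all shared start sites. Sequences of other factors, AP-1 and TEAD among them, were in 0 of 29 as well, against 3.4% and 6.7% of all. A count of 0 in 29 independent sites would allow a share of up to 10.3%. Several of the 29 sites lie at the same gene, as at Wnt5a, so this limit is not firm. Whether ETS sequences are rarer at member starts was not tested. TCF/LEF sequences, through which canonical Wnt signalling acts on genes, were rare at member sites and at all shared sites alike. CTTTGAT was in 1 of 29 start sites, at Wnt11 (3.45%, against 1.09% of all), and CTTTGAA in 0 (1.46% of all). Among non-start sites CTTTGAA was in 4 of 69 (5.80%, against 3.53%), at Dkk2, Fzd6, Wnt11 and Wnt8a, and CTTTGAT in 1, at Dkk3 (2.11% of all). The AP-1 sequence TGANTCA was in 5 of 69 (7.25%, against 12.5%) and the CTCF consensus in 13 (18.8%, against 17.9%). The TEAD sequence GGAATG was in 8 of 69 (11.6%, against 11.3%), the GATA sequence AGATAA in 6 (8.70%, against 6.88%) and the FOX sequence TGTTTAC in 1, at Dkk2 (3.14% of all). A match is a description of the reference sequence and not evidence of binding.

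Replicate 1 peaks near members were found again in replicate 2 at about the overall rate. Of 167 replicate 1 peaks in the windows of members, 85.6% overlapped a replicate 2 peak, against 86.1% of all peaks. Of 220 replicate 2 peaks there, 62.7% overlapped a replicate 1 peak, against 69.6%. At the 29 shared start sites the log2 ratio of replicate 2 to replicate 1 heights had a median of -0.26 and an SD of 0.32, and over all 16050 shared start sites -0.07 and 0.28. Sites of Fzd1 and Fzd6 marked the extremes among members, at 0.68 and -0.91. They lay 0.749 and -0.836 from the median of all shared start sites, well beyond the SD of 0.28. Both were within the range of all shared start sites, -1.33 to 1.02.

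Other genes of the pathway were listed by role, and 52 of 54 listed symbols were found in the annotation. Krem1 and Krem2 matched no symbol as written, which does not show that these genes are missing from it, and they were not counted. Start peaks in both libraries were present for 41 of 52, against 56.3% of all protein-coding genes. Most of the 52 had a CpG ratio over 0.6, the class in which 88.4% of all protein-coding genes had one. The counts by role below are therefore not read as a trait of the pathway. Intracellular parts had them in 11 of 11 genes of the destruction complex and relay, led by Gsk3b (4.72 and 6.18), the beta-catenin gene Ctnnb1 (4.47 and 4.89) and Gsk3a (4.21 and 5.18), and in 8 of 8 nuclear factors, where Tcf7l1 (3.78 and 4.40) was higher than Lef1 (1.25 and 0.982) in both libraries. Of the co-receptors and alternative receptors 6 of the 9 matched had one, including Lrp5, Lrp6, Ror1, Ror2 and Ryk. Lgr4, a receptor for Rspo proteins, had the highest of these (3.85 and 4.56). Its relatives Lgr5 (replicate 2 alone, 0.634) and Lgr6 (none) did not have one in both libraries. In the longer lists 8 of these 9 had one in both, with Lgr5 and Ptk7 added. Znrf3 (3.73 and 3.44) and Rnf43 (2.70 and 2.72), whose products remove Frizzled proteins, and the ligand secretion genes Porcn and Wls all had one. Among 7 other secreted inhibitors 1 had one, Wif1 (1.76 and 1.24), and Frzb, Notum, Sost, Sostdc1, Dkkl1 and Draxin did not in both. In the longer lists 3 of the 7 had one in both, with Frzb and Notum added, and Frzb had 0.732 in replicate 2 of the shorter list. Planar polarity genes had 5 of 7, with Celsr1 and Celsr3 lacking one, and the common target genes 6 of 6, among them Ccnd1 (4.09 and 2.87), while the feedback target Axin2, listed with the destruction complex, had 2.32 and 2.80.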

How the data were processed

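DNase-seq was measured in 2 libraries of mouse urinary bladder. The authors made the peak lists library by library from filtered alignments to mm10 and a mappability reference, and the footprints from the FDR file and the alignments, as the deposited descriptions state. For the aligner and the callers no name is given in the sources used here. Peak height is the signal that the authors deposited in column 7, on a scale no header states. The values look like counts scaled by a constant per library, since all low heights are whole multiples of a step within a tolerance of 0.05. Each footprint carries the same deposited value, 0.01, whose meaning no source used here states; the value itself, filed here as a p-value, was used in no result. The per-site FDR values, which are adjusted p-values, are deposited up to 0.05. Every list was made on a C57BL/6J reference although the animals are hybrids; the effect on heights was not tested.

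The list with fewer rows was the main one, and the longer list an alternative. Peaks were compared with 132633 annotated starts of GENCODE M21 on GRCm38 patch 6, which shares coordinates with mm10. Sites are peaks of both libraries merged where they overlap by at least 1 base, and a shared site holds peaks of both. Heights were ranked among all start peaks of a library. Members, families and lists were chosen with earlier results of these data known. The genes described in full were to be the 3 highest start peaks per family, members with a start peak in 1 library or none, and the densest non-start locus. All other members are given by value as well. Alternatives were other lists, windows, flanks, overlaps and single libraries. One alternative, leaving out 1 gene of each neighbouring Wnt pair, was chosen after seeing the data. Counting was tested on simulated data. Python 3.11.15, pandas 2.3.3, pysam 0.24.0, bedtools 2.31.1 and matplotlib 3.10.9 were used.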

Additional observations from a re-analysis of the deposited data

How the results depend on the processing

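With 1 group of 2 libraries no p-value was computed, and read depth is unknown, so a missing peak at a weak site is not shown to be absent. No paired analysis was possible because there is 1 group. The Fzd count stayed at 10 in the longer list, in lists of equal length, in either library alone and with each start window tried, and was 9 with the stronger 50% of peaks and 7 with the reciprocal overlap. The Dkk count was 0 in each setting run for it. With the stronger 50% of peaks, members with a start peak in both libraries fell from 19 to 12, Wnt genes to 3 and Sfrp genes to 0, while 47.6% of all genes kept one. The 7 members lost were Wnt5a, Wnt5b, Wnt11, Wnt16, Fzd6, Sfrp1 and Sfrp2. With the longer list Wnt genes reached 11, Rspo genes 1 and all members 25, while 61.4% of all genes had one. With a reciprocal overlap of 50% Wnt genes had 4 and all members 13, the latter within 1.5 times, while 50.9% of all genes kept one. The members lost were Wnt4, Wnt5b, Wnt9a, Fzd5, Fzd6 and Fzd10. Without replicate 1 and without replicate 2, members ranged from 20 to 23 and Rspo genes from 0 to 1.

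Densities of non-start sites moved with most settings. For all members the main median of 0.969 per 100 kb became 1.93 with the longer list (1.61 for all genes), 0.545 with the stronger 50% (0), 0 with a flank of 10 kb (0), 1.35 with 100 kb (0.910), 2.45 with start peaks included (2.50) and 0.759 with nearest genes only (0). Without replicate 1 and without replicate 2 it ranged from 1.81 to 1.93. For Wnt genes single libraries ranged from 1.89 to 4.65, the longer list gave 2.89, start peaks included 3.55 and nearest genes only 0.818, which is below the Fzd value. The Fzd median became 1.92 with the longer list, 0.294 with the stronger 50%, 0 with 10 kb, 0.977 with 100 kb, 2.55 with start peaks, 0.932 with nearest genes only and 1.89 to 1.90 in single libraries. The Sfrp median became 0.926 with the stronger 50%, with lists of equal length and with the reciprocal overlap, 0 with 10 kb, 0.691 with 100 kb, 2.11 with start peaks, 0.362 with nearest genes and 1.29 to 1.38 in single libraries. The Dkk median became 1.48 with the longer list, 0 with the stronger 50% and with 10 kb, 1.53 with start peaks and 0.965 to 1.45 in single libraries. The Rspo median became 0 with the stronger 50%, 0.483 with 10 kb, 0.626 with 100 kb, 1.03 with start peaks and 0.273 to 0.680 in single libraries. Leaving out 1 gene of each neighbouring pair, chosen after seeing the data, gave 1.89 for Wnt genes. The cause of these changes was not tested.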
